A study of Homo sapiens with 2 samples.

Results

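The keratin genes examined here are the 55 protein-coding genes whose symbol is KRT followed by a digit and that lie in the keratin clusters of chromosomes 12 and 17. They are 55 of 20033 protein-coding genes in the GENCODE annotation of the human genome build hg38, 27 on chromosome 12 and 28 on chromosome 17. The keratin-associated protein genes (KRTAP) were left out by the rule. Open chromatin was measured by ATAC-seq, an assay based on Tn5 transposase cutting and tagging DNA that is free of nucleosomes, in CAMA-1, an established luminal breast adenocarcinoma line grown as an untreated adherent culture in DMEM with fetal bovine serum. The samples were 2 biological replicates of 50000 cells each, all of 1 condition, so that no groups of samples were compared and no p-value is given. The MACS2 peak list of replicate 1 held 245736 peaks and that of replicate 2 held 259745. A single cell line is a limited model of luminal breast cancer, and differences between keratins within it are differences between loci, not between conditions.

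Keratins are the intermediate filament proteins of epithelial cells. An acidic type I keratin, encoded on chromosome 17, and a basic type II keratin, encoded on chromosome 12, pair to form each filament, and KRT18 is the type I gene that lies beside its partner KRT8 in the type II cluster. KRT8, KRT18, KRT7 and KRT19 are the keratins of simple epithelia and of the luminal layer of the breast, KRT5, KRT14, KRT15 and KRT17 mark the basal layer, and the hair and inner root sheath keratins are made in the hair follicle.

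Each peak carries a fold enrichment, the read pileup at its highest point over the background set by the caller, with 1 read added to both. Because every value in a list was a whole multiple of a single step, 0.230 in replicate 1 and 0.221 in replicate 2, the pileup height in reads was recovered from it. The median peak of the library had a fold enrichment of 8.28 in replicate 1 and 7.96 in replicate 2. The strongest peak at a start site had a median of 51.1 and 52.6 over all genes with such a peak. The lists hold only peaks over the caller's threshold, with a lowest height of 11 reads, so a gene without a peak was not detectably open at this depth. A weak peak from few cells and a weak opening in all cells cannot be told apart.

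The label of the cells was checked on marker genes at their annotated start sites. A start site peak in both replicates was present in 79.3% of all protein-coding genes, so the counts alone say little about identity. All 7 luminal markers had one, among them EPCAM with a fold enrichment of 98.2 and 90.0, FOXA1 with 84.9 and 90.2, and ESR1, the estrogen receptor gene, with 31.3 and 32.5. Of 6 basal or myoepithelial markers, 4 had one in both replicates, including MYLK at 128 and 153 and TP63, the basal transcription factor gene, at 5.29 and 6.41. CNN1 had a peak only in replicate 2 and EGFR had none. Of the blood markers reported here, PTPRC, SPI1 and CD3E had none. Of the 4 stroma and vessel markers, COL1A1, PDGFRB and CDH5 had a peak in both replicates and PECAM1 had none. Expression was not measured here.

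A peak within 1 kb of any annotated start site was called in both replicates for 23 of the 55 keratin genes (41.8%), against 15890 of 20033 protein-coding genes (79.3%). Another 4 keratins had one in replicate 2 only, and 28 had none. Within 3 kb the gap was smaller, with 39 of 55 keratins (70.9%) against 85.0% of all genes. All 4 simple and all 4 basal keratins were among the 23, with 9 of 19 keratins of stratified epithelia, 4 of 17 hair keratins (23.5%), 0 of 8 inner root sheath keratins, and 2 of the 3 others. Annotated start sites are unevenly distributed among these genes, with 7 to 18 for a simple keratin, 3 to 9 for a basal one and 1 to 4 for a hair keratin. At the canonical start site alone, that of the Ensembl canonical transcript, 18 of 55 keratins (32.7%) were called in both replicates against 73.5% of all genes. By that measure the classes had 4 of 4 simple, 3 of 4 basal, 7 of 19 stratified, 2 of 17 hair and 0 of 8 inner root sheath keratins called.

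**Figure D1:**
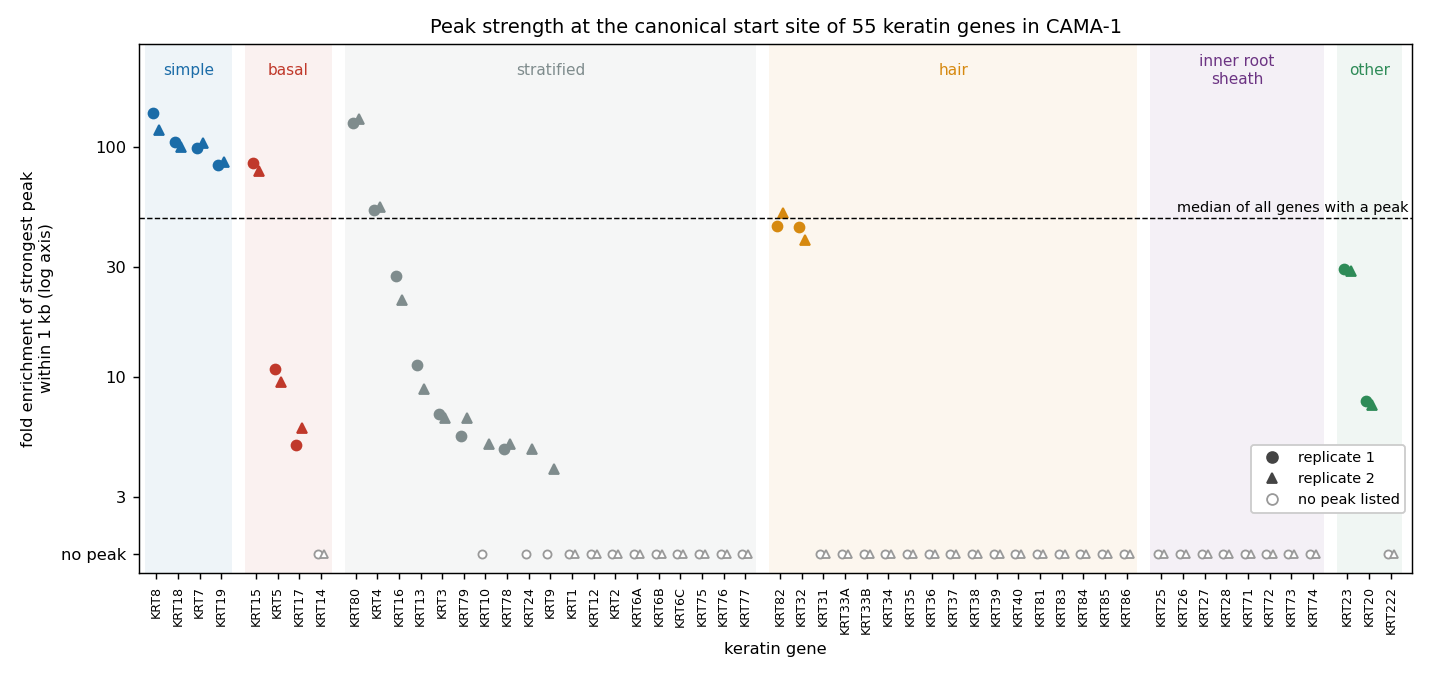
Fold enrichment (log axis) of the strongest peak within 1 kb of the canonical start site for each of the 55 keratin genes, grouped by class, with circles for replicate 1, triangles for replicate 2, open symbols where no peak is listed and a dashed line at the median of all genes with a peak. The 4 simple keratins sit between 83.5 and 140.1, above the median, while KRT5 and KRT17 lie between 5.06 and 10.8 and no inner root sheath keratin has a peak.

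The simple keratins were open at high levels in both replicates. KRT8, the type II keratin of simple epithelia (chr12:52897187-52949954, minus strand), reached a fold enrichment of 140.1 in replicate 1 and 147 in replicate 2, or pileup heights of 608 and 662 reads. Its value stood at the 94.8th and 95.4th percentile of genes with a start site peak. At its canonical start, position 52905076, the values were 140.1 and 119. KRT18, its type I partner (chr12:52948871-52952906, plus strand), reached 105 and 99.7, or 456 and 450 reads. A single peak of 10225 bp in replicate 1 and 10078 bp in replicate 2 covered the whole of KRT18 and also the most 5′ start site of KRT8, so that both genes share it. Among all peaks of the lists its width ranked 26th and 31st. Since no summit position is listed, the fold enrichment of so wide a peak can stem from bases several kb from the start site.

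KRT7 and KRT19, a type II and a type I keratin of ductal epithelia, were open to a similar extent. KRT7 (chr12:52232520-52252186, plus strand) had a fold enrichment of 101 in replicate 1 and 104 in replicate 2, and 98.7 and 104 at its canonical start. Peaks covered 99.5% and 97.8% of the gene, the widest of them being 11250 bp and 10348 bp in replicate 1 and 13665 bp and 6358 bp in replicate 2. KRT19 (chr17:41523617-41528308, minus strand) had 85.1 and 86.2, and at its canonical start 83.5 and 86.2. Peaks covered 91.8% and 97.1% of it. For KRT8, KRT7 and KRT19 the strongest start site peak was a different one in each replicate, so their replicates are compared at the canonical start. There each of the 4 simple keratins differed less between the replicates than from the median gene with a canonical start peak, 48.1 and 49.8, and all 4 lay above that median.

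The basal keratins spanned a wide range, from weak peaks to one near the level of KRT19. KRT5, the type II keratin of the basal layer (chr12:52514575-52520530, minus strand), had values of 10.8 and 9.73, the latter at an annotated start inside the gene, at the 10.1th and 9.41th percentile of genes with a peak. At its canonical start, position 52520394, the fold enrichment was 10.8 and 9.51, with heights of 46 reads (95% exact Poisson interval 33.7 to 61.4, covering counting error only) and 42 reads (30.3 to 56.8). That peak, chr12:52521238-52521568 in replicate 1, did not reach the start site but lay 844 bp upstream of it, and 832 bp upstream in replicate 2. Only in replicate 2 was there a closer peak, 132 bp away, with a fold enrichment of 3.54.

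KRT14, the type I partner of KRT5, had no peak within 1 kb of its canonical start site, position 41586895, in either replicate. The closest one lay at a distance of 2476 bp (replicate 1) and 2449 bp (replicate 2), with fold enrichments of 12.2 and 12.4. Its called value of 28.5 and 25.4 came from the annotated start of a retained-intron transcript inside the gene, under a peak at chr17:41583058-41583563 over exons 5 to 7. KRT17, a type I keratin of appendages and activated epidermis (chr17:41619442-41624842, minus strand), had the weakest start site peak of the 8, with 5.06 and 5.97. Its heights were 21 reads (13.0 to 32.1) and 26 reads (17.0 to 38.1), which overlap, and the peak touched the start site in replicate 1 and lay 198 bp from it in replicate 2, where a weaker peak of 3.76 touched it.

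KRT15 stood apart from the other basal keratins. It is a type I keratin of basal cells and lies next to KRT19. Its fold enrichment was 85.1 in replicate 1 and 78.3 in replicate 2, or 369 and 353 reads. The first equals the value of KRT19, and the second lies below the 4 simple keratins, of which the lowest in replicate 2 was KRT19 at 86.2. The canonical start site at position 41518890 lay at the edge of the peak, of which 99.3% and 98.0% was upstream of that start. In replicate 1 that peak ran for 7891 bp, chr17:41518839-41526729, into the body of KRT19 and gave both genes the same value of 85.1. In replicate 2 it was 4353 bp long and ended before KRT19, chr17:41518806-41523158. Which of the 2 genes this open stretch belongs to was not tested.

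On the log2 scale, the mean fold enrichment of the 4 simple keratins was 6.73 in replicate 1 and 6.74 in replicate 2, and that of the 4 basal keratins 4.26 and 4.20. The difference, simple minus basal, was 2.50 ± 0.0442 (SD, n = 2), a 5.67-fold higher geometric mean, and exceeded the spread between replicates by far. No test was run on these 2 values. The mean difference had the same direction on each chromosome, where 1 class was a single gene. At the canonical start site the 3 simple keratins of chromosome 12 exceeded KRT5 by 3.44 ± 0.0731. On chromosome 17 KRT19 exceeded the mean of the 3 basal keratins by 2.99 ± 0.0186, with KRT14 set to the lowest value listed. There KRT15, with 85.1 and 78.3, was close to KRT19, with 83.5 and 86.2, so the difference came mainly from KRT14 and KRT17. The SD covers the replicates, not the spread between genes. Over all start sites the chromosome 17 difference was smaller, 1.90 ± 0.0247. When each peak counted only for the gene with the nearest start site, only 3 of the 4 simple keratins kept a peak and the overall difference was 1.19. Without KRT15, an alternative chosen after its values were seen, it was 3.21.

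Replicate values of the called keratins lay close together. At the canonical start, over 18 genes, the median absolute log2 difference between replicates was 0.10, with KRT13 at -0.35 and KRT79 at 0.26 the widest in each direction, replicate 2 minus replicate 1. Over any start site the median of the 23 genes was 0.07, where the strongest peak may be another one in each replicate, and KRT12 was widest at 0.63.

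The keratins also differed in how much of the gene was open. Peaks covered a mean of 83.8% and 84.9% of the bases of the simple keratins in replicates 1 and 2, and 19.7% and 17.5% of the basal ones. The difference was 65.8 ± 2.31 percentage points (SD, n = 2). The median over all protein-coding genes was 5.13% and 5.40%. KRT18 was covered in full in both replicates, while KRT8 was covered over 43.9% and 44.7%, its long annotation reaching into KRT18. Among the basal keratins KRT15 had 43.7% and 45.0%, KRT14 14.5% and 14.7%, KRT5 7.09% and 6.25%, and KRT17 13.4% and 4.07%. KRT17 changed most between the replicates, and KRT19 had 91.8% and 97.1%. Outside these 8 genes the highest shares were in KRT80, 52.3% ± 2.60, the hair keratins KRT86, 28.7% ± 0.0638, and KRT32, 27.4% ± 0.449, all SD with n = 2. The annotation of KRT86 begins within KRT7 and holds all of KRT81, so its share includes bases under a KRT7 peak and under the peaks in KRT81.

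**Figure D2:**
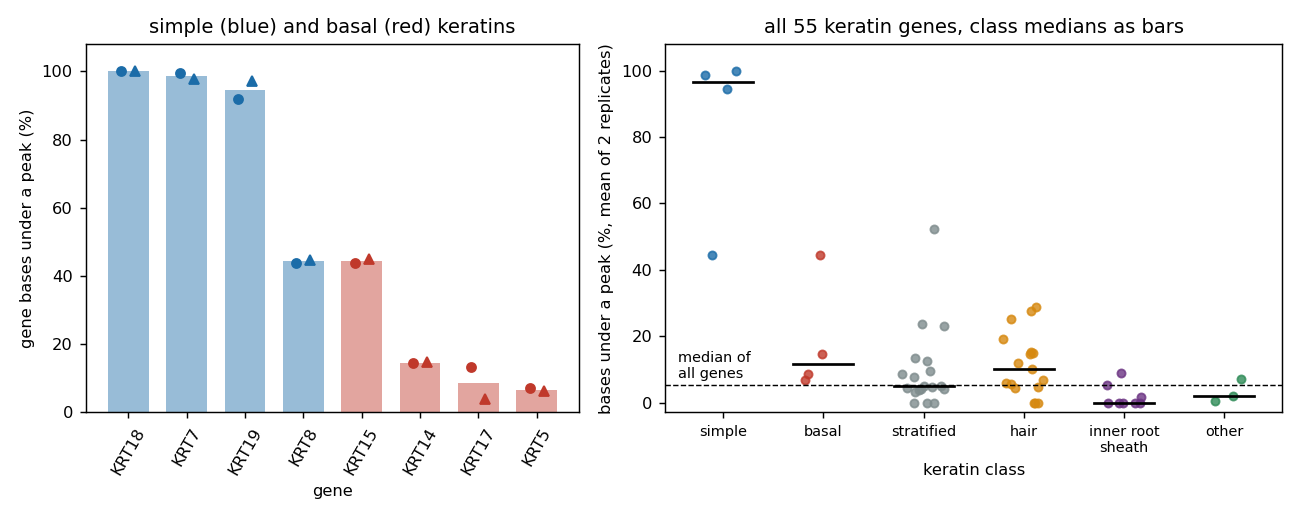
Share of gene bases under a peak (%), for the 8 simple and basal keratins on the left (bars are means, circles replicate 1, triangles replicate 2) and for all 55 keratins by class on the right (each point the mean of 2 replicates, bars class medians, dashed line the median of all genes). KRT7, KRT18 and KRT19 are above 90% in both replicates, KRT8 and KRT15 near each other at 44.3% and 44.4%, and the other basal keratins below 15%.

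Among the keratins of stratified epithelia, only KRT80 reached the level of the simple keratins. KRT80, a type II keratin that lies beside KRT7, had a fold enrichment of 127 and 133 at its start site (peak chr12:52190777-52192988). KRT16, the keratin of activated epidermis that pairs with KRT6A, had 81.5 and 82.3, but at the most strongly open of its start sites, upstream of the canonical one. At the canonical start it had 27.4 and 21.7. KRT4 and KRT13 are partners in the mucosa of the mouth and esophagus. KRT4 had 52.9 and 54.6, close to the median gene, and KRT13 had 11.3 and 8.85.

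The other stratified keratins with a peak in both replicates were weak. KRT79 had 8.51 and 8.40, KRT77 7.82 and 6.19, KRT3 6.90 and 6.63, KRT12 5.29 and 8.18 and KRT78 5.98 and 6.63. KRT3 and KRT12 are the pair of the cornea, and their values lay around or below the median of all peaks and far under that of start site peaks. The 4 keratins with a peak in replicate 2 only were KRT2 at 4.86, KRT24 at 4.86, KRT10 at 5.09 and KRT9 at 3.98, all of them below the median peak of that list. KRT10, KRT2 and KRT9 belong to the differentiated layers of the epidermis. KRT1, the type II partner of KRT9 and KRT10, had no peak at its start site or anywhere in the gene, nor had KRT76. KRT6A, KRT6B, KRT6C and KRT75 had none at a start site. Of the 3 keratins outside these classes, KRT23 had 29.5 and 29.0, KRT20, the keratin of intestinal epithelium, 7.82 and 7.52, and KRT222 none.

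Read as pairs of filament partners, both members were called at the canonical start in both replicates in 3 of 9 pairs, where 73.5% of all single genes were called. They were KRT8 with KRT18, KRT7 with KRT19, and KRT4 with KRT13. In the basal pair KRT5 was called and KRT14 was not. The pairs were listed from textbook knowledge after the values were seen, and KRT10 is in 2 of them, so nothing is read from the count.

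Of the 17 hair keratins, 13 had no peak within 1 kb of any start site in either replicate, and the 4 that did had it at a distance from the canonical start. KRT86 had 101 and 99.7, but through its most 5′ annotated start, which falls in the KRT7 peak, and its canonical start, position 52274645, had none. KRT82 had 45.1 and 51.3 from a peak inside an intron, chr12:52404998-52405355, 980 bp and 961 bp from the start site. KRT32 had 44.9 and 39.1, with the peak 216 bp away in replicate 1 and 365 bp in replicate 2. KRT40 had 22.8 and 23.7 and only at a start site other than the canonical one. The keratins without a start site peak were KRT31, KRT33A, KRT33B, KRT34, KRT35, KRT36, KRT37, KRT38, KRT39, KRT81, KRT83, KRT84 and KRT85. Of 4 hair follicle genes, HOXC13 and FOXN1, which encode transcription factors of the hair shaft, had start site peaks of 54.3 and 55.5, and of 76.9 and 73.0. FOXN1 had none at its canonical start, and TCHH and DSG4 had none at any.

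Yet peaks overlapping the gene were frequent in keratins whose canonical start was closed. Of 34 keratins without a canonical start site peak in either replicate, 24 (70.6%) had a peak overlapping the gene in both, against 2566 of 4859 (52.8%) of all such genes, although the keratins are shorter, with a median of 6.75 kb against 16.6 kb. Of 15 hair keratins of this kind, 12 did, and of 8 inner root sheath keratins, 3 did. Some of these peaks were stronger than the median start site peak in both replicates. KRT86 had 114 and 103 in an intron (chr12:52278474-52281679), KRT37 63.5 and 58.6, and KRT83 58.2 and 54.8. KRT39 had 65.8 and 68.8 from a peak over its last exon, of which 68.7% and 53.7% lay beyond the 3′ end of the gene. Without a summit position, the highest point of that peak cannot be placed inside KRT39. KRT84, with 52.2 and 44.4, exceeded that median in replicate 1 only. KRT85 had 28.8 and 31.4, KRT81 24.6 and 27.2 and KRT33A 12.2 and 13.9. KRT31, KRT34 and KRT38 had no peak in the gene in either replicate, and neither had the inner root sheath keratins KRT25, KRT26, KRT27, KRT28 and KRT74.

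The internal peaks of the type II keratins were concentrated at a single exon. This pattern was noticed in the values and then counted over all exons. Of the 26 type II keratins on chromosome 12, 24 have 9 exons in the canonical transcript, and in each of the 24 the seventh, exon 7, is 221 bases long. A peak overlapped exon 7 in both replicates in 17 of the 24 genes (70.8%), and in 13 its midpoint lay inside the exon. No other exon was overlapped in more than 5 of the 24. Over the internal coding exons of all protein-coding genes the share was 14655 of 167140 (8.77%). Exon 7 belongs to the region coding for the end of the helical rod, which is the most conserved stretch of the protein.

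**Figure D3:**
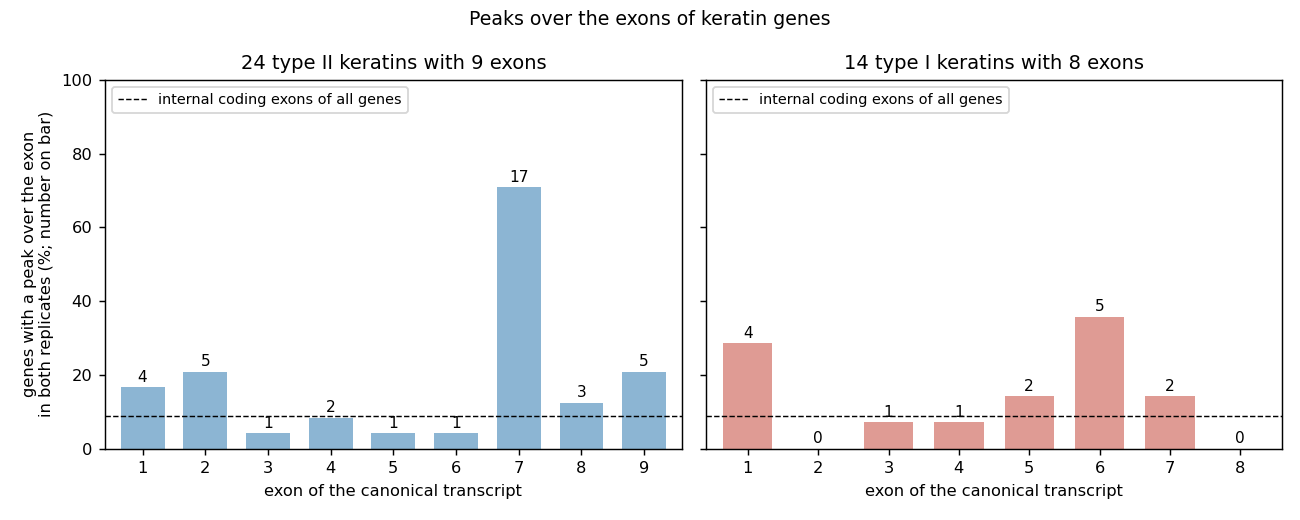
Share of genes with a peak over each exon in both replicates (%), for the 24 type II keratins with 9 exons (left) and the 14 type I keratins with 8 exons (right), with the number of genes on each bar and a dashed line at the share over internal coding exons of all genes. Exon 7 of the type II genes stands at 70.8%, with 17 genes, and the highest bar of the type I genes is exon 6, with 5 genes.

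The pattern was also present where the start site was closed. Of the 16 such type II genes without a canonical start site peak in either replicate, 12 (75%) had a peak over exon 7 in both, with median fold enrichments of 20.4 and 19.6 and none below 5.06. They were the hair keratins KRT81, KRT83, KRT84 and KRT85, the stratified keratins KRT75, KRT6A, KRT6B, KRT6C, KRT2 and KRT77, and the inner root sheath keratins KRT71 and KRT72. None of the 16 had a peak over exon 1 in both replicates, and 3 had one over exon 9. Of 2050 internal coding exons of 200 to 240 bases in all genes whose canonical start was closed, 113 (5.51%) had a peak in both. The genes without an exon 7 peak in both replicates were KRT1, KRT5, KRT73, KRT74, KRT76, KRT78 and KRT79.

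Individual exon 7 peaks ranged from strong to near the threshold. KRT82 had the strongest, with 107 in replicate 1 and 112 in replicate 2, more than at its start site. KRT75, a companion layer keratin, had 33.6 and 39.1, or heights of 145 and 176 reads, and KRT77 had 25.1 and 28.1. The weakest among the closed genes were KRT72 at 5.06 and 5.75 and KRT6B at 5.29 and 5.31. In the type I genes, exon 6 is 221 bases long in 18 of the 27 genes with at least 7 exons, and 8 of the 27 (29.6%) had a peak over it in both replicates. Among them were KRT37 at 63.5 and 58.6, KRT36 at 33.4 and 29.6, KRT14 at 28.5 and 25.4 and KRT12 at 5.29 and 8.18.

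An exon with a peak and one without are printed here to show how alike they are, with the dinucleotide CpG in capitals. They were identical at 81.4% of positions, against a median of 77.8% over all pairs of the 24 exons. KRT2 holds 10 CpG and KRT1 holds 5, where the median of the 24 is 9.5. The KRT1 exon has the lowest GC content of the 24, 57.9%, so this pair does not stand for exons with and without a peak. They were read from the hg38 reference, 5′ to 3′ on the minus strand. KRT2 (chr12:52646740-52646960) had a peak over exon 7, with 16.1 and 11.9, and KRT1 (chr12:52676275-52676495) had none.
KRT2 exon 7: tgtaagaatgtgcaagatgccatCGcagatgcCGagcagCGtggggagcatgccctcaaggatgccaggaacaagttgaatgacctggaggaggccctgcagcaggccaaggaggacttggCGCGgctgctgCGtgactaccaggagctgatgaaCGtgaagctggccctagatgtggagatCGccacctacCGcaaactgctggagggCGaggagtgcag
KRT1 exon 7: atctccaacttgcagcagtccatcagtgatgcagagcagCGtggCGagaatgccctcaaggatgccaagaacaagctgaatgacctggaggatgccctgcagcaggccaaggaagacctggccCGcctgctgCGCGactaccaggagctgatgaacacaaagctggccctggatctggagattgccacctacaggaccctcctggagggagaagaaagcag

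Position by position, the 24 exons were identical over a median of 77.8% of bases in 276 pairs, from 65.2% to 97.7% for KRT81 and KRT83. Their median GC content was 63.1%, with a median of 9.5 CpG each. Exon 1 of the same genes, with a median GC content of 61.6% and a median length of 532.5 bases, had a peak in both replicates in 4 of 24. Median GC content was 62.9% in the 17 exons with a peak and 63.8% in the 7 without. Because these genes are alike, reads can fit more than 1 place. The share of 32-base words of exon 7 that recur elsewhere in hg38 had a median of 17.6%, and was 100% in KRT81, 53.7% in KRT83, 5.79% in KRT2 and 0% in KRT77. That median was the highest of the 9 exons of the 24 genes, with exon 5 next at 4.85%. In the 14 type I genes with 8 exons the highest was exon 6, at 8.02%. In the 16 type II genes with a closed start, exon 2 had 28.2% and a peak in both replicates in 1 gene. Exon 7 of these 16 had 22.4% and a peak in 12. The part of shared sequence in the pattern was not tested beyond these values. KRT77, KRT1 and KRT78 have no shared word in exon 7, and of these KRT77 had a peak in both replicates while KRT1 and KRT78 did not. Of the type II genes with a closed start and under 5% of words shared, 1 of 2 had an exon 7 peak, and of the type I genes of that kind 1 of 5 had one over exon 6.

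The sequence at the start sites differed between the classes as well. In the 300 bases from 250 before to 50 after the canonical start, the ratio of observed to expected CpG had a median of 0.775 over all protein-coding genes, 0.188 over the 55 keratins, 0.645 over the simple keratins, 0.357 over the basal and 0.128 over the hair keratins. At the most 5′ start the corresponding medians were 0.696, 0.171, 0.426, 0.254 and 0.160. Within the simple class KRT18 had 0.881, KRT7 0.732 and KRT19 0.558, whereas KRT8, with the strongest peak, had 0.251. Keratins called in both replicates at the canonical start had a median of 0.233 (18 genes), those called in 1 replicate 0.284 (3 genes) and those called in neither 0.139 (34 genes). This compares genes, which are not replicates, and is a description.

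**Figure D4:**
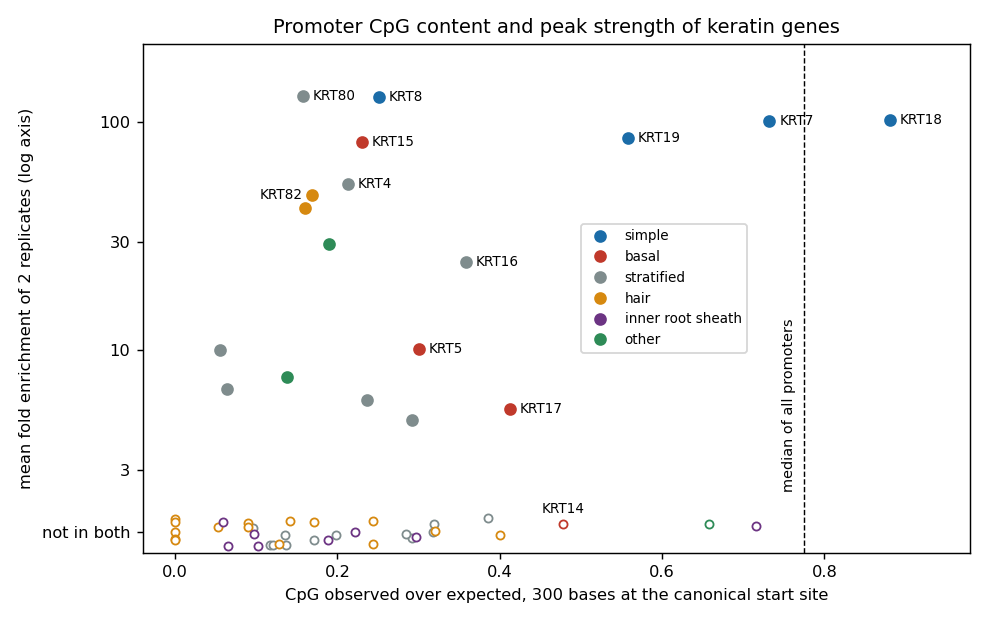
Mean fold enrichment of 2 replicates at the canonical start site (log axis) against the ratio of observed to expected CpG in 300 bases around it, for 55 keratin genes coloured by class, with open symbols for genes without a peak in both replicates (spread vertically for legibility) and a dashed line at the median of all promoters, 0.775. KRT18, at 0.881, is the only keratin with a peak to the right of the line, and KRT8, at 0.251, lies far to the left of it.

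Short motifs were counted by their letters on both strands of the same 300 bases. A match is a description, not a binding site. The TATA box letters TATAAA were present in 27 of 55 keratins against 1946 of 20033 genes (9.71%), and by class in 12 of 17 hair, 6 of 8 inner root sheath, 6 of 19 stratified, 2 of 4 basal and 1 of 4 simple keratins. The GATA letters AGATAA were present in 16 keratins, 6 of them among the 8 inner root sheath genes, against 7.16% of all genes. The SP letters GGGCGG were in 13 keratins, 3 of them simple, against 61.3% of all genes. The AP-1 letters TGANTCA were in 5 keratins, among them the basal keratins KRT14, KRT15 and KRT17, against 5.44% of all genes, and at the most 5′ start in 2 of the 4 basal keratins. The AP-2 letters GCCNNNGGC were in 9 of 55 keratins, 3 of them simple, against 29.6% of all genes, and at the most 5′ start in 1 of the 4 simple keratins. The ETS letters CCGGAA were in 2 keratins against 22.8%, the FOX letters TGTTTAC in 1 against 2.42% and the estrogen receptor letters AGGTCA in 6 against 11.2%.

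Promoter sequences of the RefSeq annotation of GRCh38.p14 were matched for 34 of the 55 keratins, in 38 windows of 300 bases from 250 before to 50 after the start. In 16 of the 38 windows TATAAA began 32 to 26 bases before the start, 8 of 18 hair, 4 of 7 inner root sheath and 4 of 10 stratified windows. In 7 windows AGATAA began 220 to 175 bases before the start, 6 of them of inner root sheath keratins, and both features were found together in KRT25, KRT27, KRT28 and KRT71. These position ranges were chosen after the sequences were seen. A peak touched 7 of the 38 windows in both replicates, those of KRT3, KRT4, KRT8 and KRT20 and 3 overlapping windows of KRT40. Of the 16 with the TATA letters it touched 1 in both replicates, that of KRT3, and 3 in at least 1 replicate, with KRT10 and KRT24 touched in replicate 2 only. The share over such windows of all genes was not counted, so nothing is read from these window counts. The nearest measure at hand is a peak within 100 bp of any annotated start site. It was called in both replicates for 73.2% of all protein-coding genes and 30.9% of the keratins. The windows below, all on the minus strand and printed 5′ to 3′ with the motif letters named above in capitals, contrast open and closed start sites. The KRT8 window (chr12:52926420-52926719) and the KRT4 window (chr12:52814067-52814366) lay wholly under a peak in both replicates. The KRT8 window is that of an alternative start, neither the canonical nor the most 5′ one, and its peak, with 110.2 and 139, is not the one described above, while the other windows printed are at canonical starts. Of the KRT5 window (chr12:52520345-52520644) 0% was covered in replicate 1 and 39.7% in replicate 2. The hair keratins KRT31 (chr17:41397559-41397858) and KRT35 (chr17:41481102-41481401) and the inner root sheath keratins KRT25 (chr17:40755282-40755581), KRT28 (chr17:40799910-40800209) and KRT71 (chr12:52553096-52553395) had no covered base.
KRT8: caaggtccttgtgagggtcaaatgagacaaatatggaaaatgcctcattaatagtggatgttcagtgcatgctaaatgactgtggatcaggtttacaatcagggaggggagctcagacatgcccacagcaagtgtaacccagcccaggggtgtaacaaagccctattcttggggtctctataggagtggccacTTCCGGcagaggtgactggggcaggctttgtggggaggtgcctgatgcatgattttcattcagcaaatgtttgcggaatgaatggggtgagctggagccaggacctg
KRT4: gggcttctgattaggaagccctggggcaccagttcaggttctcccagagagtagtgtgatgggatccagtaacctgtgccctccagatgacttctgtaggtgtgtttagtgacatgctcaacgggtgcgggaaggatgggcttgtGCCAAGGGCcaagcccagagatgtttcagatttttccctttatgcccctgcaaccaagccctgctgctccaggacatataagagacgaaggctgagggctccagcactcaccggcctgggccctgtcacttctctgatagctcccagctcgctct
KRT5: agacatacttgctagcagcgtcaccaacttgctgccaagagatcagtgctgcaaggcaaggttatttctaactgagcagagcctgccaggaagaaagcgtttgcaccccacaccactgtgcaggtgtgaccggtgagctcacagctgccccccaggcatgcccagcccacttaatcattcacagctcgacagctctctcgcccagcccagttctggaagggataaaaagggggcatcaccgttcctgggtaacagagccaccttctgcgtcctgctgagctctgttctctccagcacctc
KRT31: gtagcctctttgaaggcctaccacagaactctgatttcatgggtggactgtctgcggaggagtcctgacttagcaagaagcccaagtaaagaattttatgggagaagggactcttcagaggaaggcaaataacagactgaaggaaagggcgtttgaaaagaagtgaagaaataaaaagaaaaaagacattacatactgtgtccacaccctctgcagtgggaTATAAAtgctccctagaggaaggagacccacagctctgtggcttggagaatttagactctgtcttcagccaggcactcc
KRT35: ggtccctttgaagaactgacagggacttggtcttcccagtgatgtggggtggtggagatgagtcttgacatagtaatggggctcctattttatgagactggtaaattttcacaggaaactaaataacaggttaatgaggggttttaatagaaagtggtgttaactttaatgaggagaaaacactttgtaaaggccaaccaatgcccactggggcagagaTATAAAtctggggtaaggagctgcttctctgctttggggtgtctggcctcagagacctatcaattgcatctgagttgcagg
KRT25: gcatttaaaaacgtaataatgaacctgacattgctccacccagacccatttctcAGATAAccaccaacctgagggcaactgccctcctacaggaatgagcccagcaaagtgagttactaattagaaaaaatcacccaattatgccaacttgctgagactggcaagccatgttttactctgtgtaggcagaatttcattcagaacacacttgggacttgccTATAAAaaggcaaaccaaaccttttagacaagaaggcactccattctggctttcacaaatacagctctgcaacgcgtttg
KRT28: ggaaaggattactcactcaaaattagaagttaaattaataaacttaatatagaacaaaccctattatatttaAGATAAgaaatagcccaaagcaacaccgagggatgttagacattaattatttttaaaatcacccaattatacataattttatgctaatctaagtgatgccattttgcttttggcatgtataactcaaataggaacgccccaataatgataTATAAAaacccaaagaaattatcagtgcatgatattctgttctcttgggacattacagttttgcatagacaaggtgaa
KRT71: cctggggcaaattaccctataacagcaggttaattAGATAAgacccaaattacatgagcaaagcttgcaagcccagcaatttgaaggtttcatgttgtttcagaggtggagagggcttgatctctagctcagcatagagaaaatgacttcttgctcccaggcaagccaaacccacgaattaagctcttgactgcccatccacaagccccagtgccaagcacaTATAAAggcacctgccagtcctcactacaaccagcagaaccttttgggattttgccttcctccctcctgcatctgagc

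Along the clusters, open chromatin was concentrated around the simple keratins. In the type II cluster, peaks covered 57.6% ± 0.819 of the 83.2 kb from KRT80 to KRT7 and 47.3% ± 0.537 of the stretch from KRT8 to KRT18. They covered 12.3% ± 0.0264 of the hair keratins from KRT81 to KRT82, 3.94% ± 0.461 from KRT75 to KRT5, and 3.69% ± 0.266 of the inner root sheath keratins from KRT71 to KRT73. KRT5 thus lay in one of the least covered stretches of the cluster. Chromosome 12 as a whole was covered over 3.51% in replicate 1 and 3.71% in replicate 2. All values with ± are the mean and SD of 2 replicates.

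In the type I cluster, the stretch from KRT13 to KRT19 was covered over 46.6% ± 0.657. The stretch from KRT9 to KRT17, with KRT14 and KRT16, had 8.70% ± 0.754, and the hair keratins from KRT33A to KRT36 had 6.91% ± 0.118. The inner root sheath keratins from KRT25 to KRT28 had the lowest coverage, 0.535% ± 0.00817, with 1 peak in each replicate. Chromosome 17 as a whole had 6.41% and 6.66%. The KRTAP genes between the hair keratins, which encode the matrix proteins of the hair shaft, spanned 359 kb with 2.55% ± 0.0668 covered. Of 34 KRTAP genes, 6 had a start site peak in both replicates, against 79.3% of all protein-coding genes. The highest was that of KRTAP3-1 with 33.4 and 41.4.

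**Figure D5:**
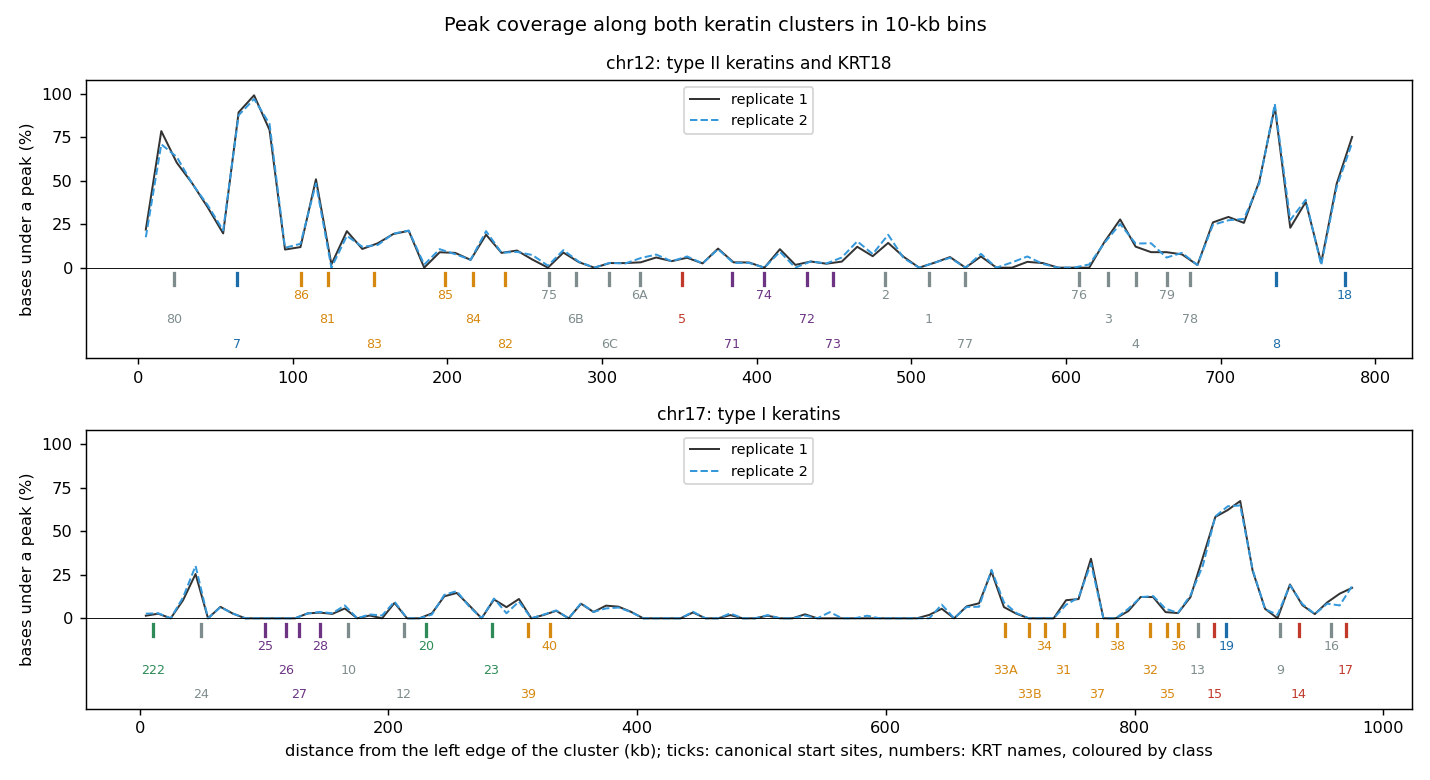
Share of bases under a peak (%) in 10-kb bins along the keratin clusters of chromosome 12 (top) and chromosome 17 (bottom), against the distance from the left edge of the cluster in kb, with a solid line for replicate 1, a dashed line for replicate 2, and ticks at the canonical start sites, labelled by KRT number and coloured by class. Coverage is highest around KRT80 and KRT7, around KRT8 and KRT18, and around KRT15 and KRT19.

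Some of the strongest peaks of the clusters lay between genes. Of the regions with a peak in both replicates, 85 of 156 in the chromosome 12 cluster lay outside protein-coding genes. In the chromosome 17 cluster it was 75 of 112. The share over all regions of the genome was not counted, so nothing is read from these counts. The strongest was chr12:52216627-52217868, with 152 and 161, between KRT80 and KRT7 in the long noncoding RNA gene LINC00592, 15273 bp from a KRT7 start site. The same interval between KRT80 and KRT7 held chr12:52213147-52214789, with 93.4 and 88.9, and chr12:52202622-52203965, with 91.3 and 83.1. Between KRT78 and KRT8 lay chr12:52859681-52860796, with 116 and 123, and chr12:52879260-52880362, with 78.9 and 73.6. Thus 3 of the 5 lay between KRT80 and KRT7 and the others between KRT78 and KRT8.

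On chromosome 17 the strongest region, chr17:41496569-41497356, with 143 and 156, lay between the hair keratin KRT36 and KRT13. The intergenic stretch between KRT19 and KRT9 held chr17:41534866-41539901, with 139 and 149.7, and chr17:41547211-41549587, with 87.9 and 93.3. A region at chr17:41578886-41580078, with 97.6 and 96.0, lay beyond the 3′ end of KRT14, 3973 bp from the start of its retained-intron transcript and farther from its canonical start. The fifth, chr17:40694534-40695057, with 67.4 in both replicates, lay between KRT222 and KRT24. Their target genes were not measured.

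The neighbours of the clusters were open more often than the keratins. Of 46 other genes within 1 Mb outside the chromosome 12 cluster, 41 (89.1%) had a start site peak in both replicates, with a median fold enrichment of 80.0 and 79.5, against 46.5 and 48.6 over the other genes of the chromosome. Near the chromosome 17 cluster it was 63 of 66 (95.5%), with 58.7 and 57.9 against 48.8 and 50.4. DNA copy number also scales read pileup and was not measured here, so the share of it in the levels of either cluster cannot be told apart from accessibility. Within a cluster, genes such as KRT7 and KRT5 or KRT19 and KRT14 lie less than 1 Mb apart, and whether copy number differs between them was not tested.

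The proteins that anchor keratin filaments were examined as a list, against the 79.3% of all genes with a start site peak in both replicates. Of 12 desmosome genes, 8 had one, the highest being JUP, which encodes plakoglobin, with 157 and 161, while DSG1, DSG3, DSG4 and DSC3 had none. All 7 plakin and linker genes had one, with EPPK1, which encodes epiplakin, at 184 and 196. Of 15 genes of other intermediate filaments, 11 had one in both replicates, with LMNA, which encodes lamins A and C, at 223 and 235, and 7 had one at the canonical start, against 73.5% of all genes. DES, NEFM and NEFL had none and INA had one in replicate 1 only.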

How the data were processed

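ATAC-seq was performed on 2 biological replicates of CAMA-1. Per the submitters' processing notes, the tools were Trim Galore 0.6.5, Bowtie2 2.3.5.1 and MACS2 2.2.6, and peaks were called for each replicate. The settings of MACS2 and the treatment of duplicate and multi-mapped reads are not given in the sources used here. The deposited peak lists hold for each peak a fold enrichment, a ratio of pileup over background, a −log10 p and a −log10 q as the authors' peak caller wrote them, and a score that equals 10 times the −log10 q. The peak lists carry no read totals, and precision is given here through the recovered pileup heights, with backgrounds of 3.35 reads in replicate 1 and 3.52 in replicate 2.

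Genes, transcripts and exons were taken from GENCODE release 44 on hg38. A peak was assigned to a gene when it lay within 1 kb of a start site. The measures were the fold enrichment of the strongest such peak, and the percent of gene bases under peaks. For the difference between simple and basal keratins, a gene without a peak was set to the lowest fold enrichment of the list. Keratins were classed as simple, basal, stratified, inner root sheath, hair or other from textbook knowledge. Motifs and CpG were read from the hg38 reference, at the most 5′ and at the canonical start. All 8 simple and basal keratins are named, with every keratin called in 1 replicate only or in both, in full for the 5 strongest of each other class, at most 4 genes of each list of partners, and the 5 strongest regions between genes of each cluster. The canonical start site, the exon counts and the pairs were added after values were seen. 1 marker gene and some exon sequences are not reported here. The members and lists were chosen with earlier results of these data known.

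Alternatives were distances of 100 bp and 3 kb, the most 5′ or canonical start, only the 50000 strongest peaks, only peaks with −log10 q from 10 upwards, assignment to the nearest gene, genes without their first 1 kb, omission of KRT15, and omission of each replicate. Values are given with the SD of 2 replicates, and intervals are exact Poisson intervals of the height at 95%. Python 3.11.15, numpy 2.4.6, pandas 2.3.3, scipy 1.17.1 and matplotlib 3.10.9 were used. The assignment of peaks to start sites and the count of covered bases were tested on simulated peaks, and the other steps were not.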

Additional observations from a re-analysis of the deposited data

How the results depend on the processing

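The count of 23 keratins with a start site peak in both replicates moved to 39 within 3 kb (70.9% against 85.0% of all genes, a smaller gap than 41.8% against 79.3%) and to 13 with the 50000 strongest peaks of each list (23.6% against 61.4%). The count of 4 hair keratins moved to 2 within 100 bp, 12 within 3 kb and 2 at the canonical start. The log2 strength difference of 2.50 moved to 2.80 within 100 bp, 3.21 at the most 5′ start, 3.29 at the canonical start, 3.21 without KRT15, 3.48 with log2 of the −log10 q as the measure, and 1.19 with each peak given to the nearest gene, where 3 of 4 simple keratins kept a peak. The gene body difference of 65.8 percentage points moved to 68.6 with a −log10 q of at least 10 and to 74.3 without KRT15. Without either replicate in turn the values were 23 to 27, 4 to 4, 2.47 to 2.54 and 64.1 to 67.4. Under the remaining 12 alternatives, 11 planned and 1 added, the values moved by less than the spread between replicates or, for counts, stayed within 1.5 times. The direction of both differences was the same under each alternative run. The canonical start and the omission of KRT15 were chosen after the data were seen. No paired analysis was possible because with 1 condition there are no groups of samples to pair, and the differences between keratin classes were taken within each replicate. Depth limits the weak keratins: at heights of 21 to 46 reads KRT17 and KRT5 carry wide counting intervals, and wide peaks shared by neighbouring genes limit which gene a value belongs to.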
